A study of Mus musculus with 10 samples.

Results

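The 8 transcripts described here are encoded by mitochondrial DNA (mtDNA). They are the mRNAs of cytochrome b (mt-Cytb, complex III), of the cytochrome oxidase subunits mt-Co1, mt-Co2 and mt-Co3 (complex IV) and of the ATP synthase subunits mt-Atp6 and mt-Atp8 (complex V), together with the small and large ribosomal RNAs of the mitochondrial ribosome (mt-Rnr1 and mt-Rnr2). They were picked by name, with earlier results of these data known, from the 20156 gene rows of the table. All 8 were found there. The mRNA rows carry these symbols. The rRNA rows are named by an Ensembl gene ID with the prefix mt-, and were matched to mt-Rnr1 and mt-Rnr2 through that ID. All 8 passed the filter on low counts, as did 16180 rows in all.

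Hippocampal RNA was sequenced from 5 wild-type (WT) mice and 5 mice of the genotype labelled TfamAKO, all aged 6 months, with 1 library per mouse. The series title places the question in astrocytic mitochondria. The labels name no allele, promoter or Cre driver for TfamAKO and give no sex, litter or batch, nor do they say whether the WT mice carried any transgene. RNA came from whole hippocampus, and the TruSeq stranded kit used for the libraries selects mRNA, per the labels' protocols. Nothing in the labels says how the mice were related, so p-values measure the spread between these libraries.

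Mitochondrial DNA is a small circle that codes for a few respiratory chain and ATP synthase proteins, the rRNAs and a set of tRNAs. Its heavy strand is transcribed into long precursors, from which the mature RNAs are cut, largely at the tRNAs that lie between them. Tfam, the gene named in the genotype, encodes the protein that packs mtDNA and helps to start its transcription. Cytochrome b, the oxidase subunits and the ATP synthase subunits are made on the mitochondrial ribosome and join a larger number of subunits that are encoded in the nucleus.

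The ends of the 6 mRNAs are shown because the mRNA kit depends on poly(A) tails and because some of these reading frames lack a complete stop codon in the DNA. Each line gives the last 30 bases of the GENCODE M21 (GRCm38) transcript, 5′ to 3′, with the letters of the stop codon in capitals.
mt-Cytb: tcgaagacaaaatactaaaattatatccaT
mt-Co1: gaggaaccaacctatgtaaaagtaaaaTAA
mt-Co2: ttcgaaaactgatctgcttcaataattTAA
mt-Co3: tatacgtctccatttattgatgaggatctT
mt-Atp6: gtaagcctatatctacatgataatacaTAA
mt-Atp8: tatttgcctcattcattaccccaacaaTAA
mt-Cytb (1144 bases) and mt-Co3 (784 bases) end in a lone T, and the poly(A) tail supplies the rest of the stop codon. The other 4 end in a full TAA.

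The rRNAs have no reading frame, and their last 30 bases are given to show that no run of A is written at either end in the reference.
mt-Rnr1: aagcatactggaaagtgtgcttggaataat
mt-Rnr2: atacgtacaccctctaacctagagaaggtt
Mitochondrial rRNAs carry at most short A tails, so an mRNA kit samples them in an unknown part, and a level of an rRNA set against an mRNA is a property of these libraries. The longest run of A inside the transcript was 7 in mt-Rnr2 (1582 bases, with 4 runs of 6 or more A) and in mt-Co1 (1545 bases, with 1 such run), and 5 in mt-Rnr1 (955 bases).

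mt-Atp8 and mt-Atp6 lie on a shared mRNA and overlap. The 43 bases below are the end of mt-Atp8 and at the same time the start of mt-Atp6, with the start codon of mt-Atp6 and the stop codon of mt-Atp8 in capitals.
mt-Atp8 and mt-Atp6 overlap: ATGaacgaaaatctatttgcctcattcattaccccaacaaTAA
Reads from this stretch cannot be told apart, and on the shared mRNA the split of reads between the rows depends on the counting. The 2 rows are therefore not independent measurements.

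The nuclear genome holds copies of mtDNA, so the 31-base words of each transcript were compared, on the same strand, with all other GENCODE M21 transcripts. Of these words, 100% of mt-Co2, 99.9% of mt-Co3, 99.5% of mt-Atp6 and 63.9% of mt-Co1 also occurred in another transcript, mostly an annotated pseudogene. The share was 7.47% for mt-Atp8, 6.55% for mt-Cytb, 2.71% for mt-Rnr2 and 0% for mt-Rnr1. For mt-Co1, mt-Co2 and mt-Atp6, 5 such pseudogenes are rows of the table under an Ensembl ID, and no row was matched to Gm28437, the copy of mt-Co3. The most abundant of them, Gm10925 and Gm29216, reached 0.888% of the mean level of mt-Atp6 and 0.681% of that of mt-Co1. With the counts of these 5 rows added to the members, an alternative added with the data in view, the log2 fold changes were -0.36 for mt-Co1, -0.46 for mt-Co2 and -0.53 for mt-Atp6. Without that step they were -0.36, -0.46 and -0.53 as well.

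Total counts ran from 16584245 to 28675367 per library. The 10 markers of hippocampal principal neurons listed for the check of the tissue were all detected, the lowest at a mean of 17.7 CPM (counts scaled to the effective library size). Libraries stood apart in 2 ways that touch the groups. WT 3, 4 and 5 held choroid plexus RNA (Ttr at 2511 to 5146 CPM, against 14.3 to 122 CPM in the other libraries), and TfamAKO 4 and 5 held the Y-linked Kdm5d at 22.4 and 22.7 CPM, which was under 1 CPM elsewhere. Tfam itself was at 29.7 ± 5.17 CPM in WT and 22.5 ± 1.63 CPM in TfamAKO (SD, n = 5 each, log2 fold change -0.40 ± 0.12 (SE), edgeR adjusted p = 0.0204). WT 3, at 20.6 CPM, lay within the TfamAKO range. Tfam lost its call in the deposited normalized values (limma adjusted p = 0.117). The edgeR adjusted p of Tfam was 0.0580 when WT 2 was left out, 0.0504 for WT 4, 0.0554 for TfamAKO 3 and 0.0524 for TfamAKO 4 and 5 together.

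All 8 transcripts were lower in TfamAKO. Each rRNA had a larger fall than each of the 6 member mRNAs. This difference passed the test of the ratio for 11 of the 12 pairs. In the edgeR quasi-likelihood fit over all genes with Benjamini-Hochberg adjustment at 0.05, 8 of 8 members were lower and 0 higher, where 16.6% of all tested genes were lower and 37.4% were called in either direction. The mRNAs fell by 22.2% (mt-Co1) to 31.9% (mt-Co3), mt-Rnr2 by 39.5% and mt-Rnr1 by 47.8%. The groups did not overlap for 6 of the 8 members, all but mt-Co1 and mt-Co2, where 9.43% of all tested genes were lower without overlap and 23.9% were apart in either direction. The 6 mRNAs together made up 3.36% to 4.57% of counts in WT and 2.84% to 3.26% in TfamAKO, and the rRNAs 0.576% to 0.746% and 0.346% to 0.421%. In bulk tissue, fewer cells of a type and less RNA per cell cannot be told apart.

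**Figure D1:**
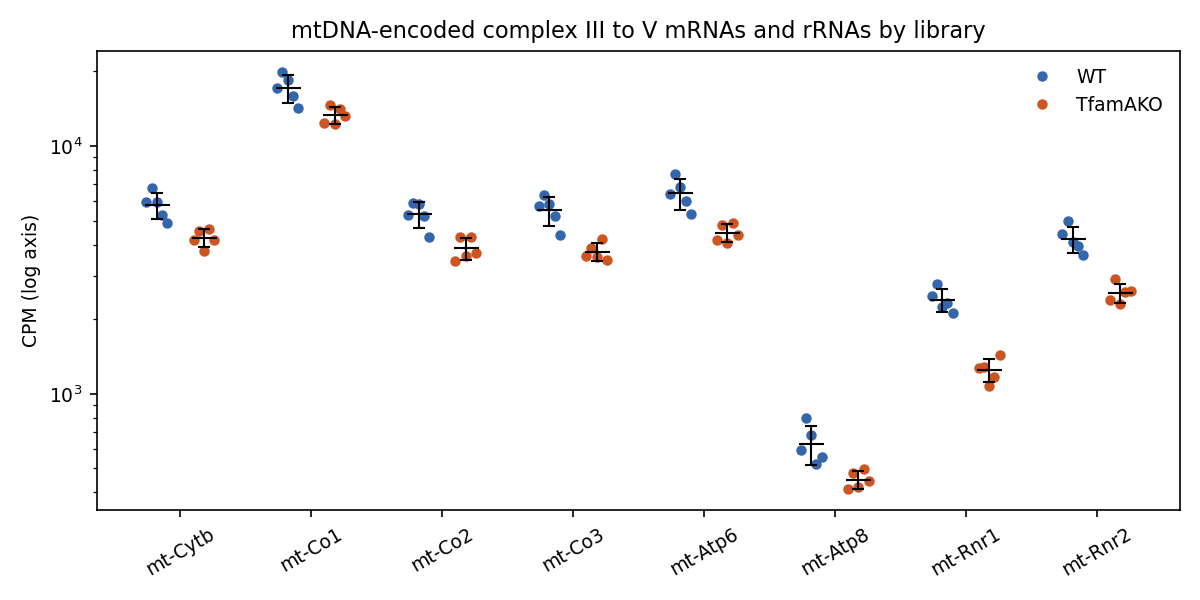
CPM (log axis) of the 8 transcripts in each library, with WT in blue and TfamAKO in orange (n = 5 each) and black bars for the mean and SD. Every TfamAKO library lies below the WT mean for each transcript, and the gap between the groups is widest for mt-Rnr1.

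The small ribosomal RNA mt-Rnr1, the scaffold of the subunit that reads the mRNA, had 2475, 2771, 2246, 2335 and 2114 CPM in the WT libraries 1 to 5. In TfamAKO 1 to 5 it had 1274, 1277, 1075, 1174 and 1428 CPM. The highest TfamAKO library thus lay far below the lowest WT library. The mean went from 2388 ± 251 to 1246 ± 132 CPM (SD, n = 5 each), a log2 fold change of -0.94 ± 0.09 (SE, edgeR adjusted p = 1.52e-05). The large ribosomal RNA mt-Rnr2, which holds the peptide-bond-forming centre, was at 4402, 4983, 4116, 3963 and 3636 CPM in WT 1 to 5. Its levels in TfamAKO 1 to 5 were 2400, 2909, 2306, 2564 and 2597 CPM. Again no library crossed between the groups, and the mean fell from 4220 ± 508 to 2555 ± 231 CPM (SD, n = 5 each, log2 fold change -0.72 ± 0.09, edgeR adjusted p = 9.99e-05).

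Of complex III, mtDNA encodes only cytochrome b, the subunit that carries the quinone sites. The WT libraries 1 to 5 held mt-Cytb at 5964, 6744, 5965, 5251 and 4912 CPM. The TfamAKO libraries 1 to 5 held it at 4187, 4560, 3757, 4626 and 4174 CPM. The groups came close, with TfamAKO 4 just under WT 5, and did not overlap. The mean went from 5767 ± 712 to 4261 ± 350 CPM (SD, n = 5 each, log2 fold change -0.44 ± 0.09, edgeR adjusted p = 0.00282).

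The 3 oxidase subunits form the catalytic core of complex IV. mt-Co1, which binds the haems where oxygen is reduced, was the most abundant member, at 17163, 19976, 18502, 15887 and 14188 CPM in WT 1 to 5. It was at 12398, 14581, 12292, 14177 and 13252 CPM in TfamAKO 1 to 5. WT 5 lay within the TfamAKO range, and 4 of 5 TfamAKO libraries lay below every WT library. The mean went from 17143 ± 2246 to 13340 ± 1029 CPM (SD, n = 5 each), a log2 fold change of -0.36 ± 0.09 (SE, edgeR adjusted p = 0.00949), the smallest fall of the 8.

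mt-Co2, which takes electrons from cytochrome c, had levels of 5275, 5895, 5833, 5237 and 4294 CPM in the WT libraries 1 to 5. The TfamAKO libraries 1 to 5 had 3436, 4301, 3590, 4288 and 3706 CPM. Here TfamAKO 2 was level with WT 5, and the other 4 TfamAKO libraries were below all WT libraries. The mean fell from 5307 ± 643 to 3864 ± 404 CPM (SD, n = 5 each, log2 fold change -0.46 ± 0.10, edgeR adjusted p = 0.00321). mt-Co3, the third core subunit, had 5735, 6341, 5819, 5222 and 4368 CPM in the WT libraries 1 to 5. In the TfamAKO libraries 1 to 5 the values were 3602, 3888, 3563, 4200 and 3475 CPM. Its groups did not overlap, and its mean fell from 5497 ± 745 to 3746 ± 298 CPM (SD, n = 5 each), the largest fall of the member mRNAs (log2 fold change -0.55 ± 0.10, edgeR adjusted p = 0.000930).

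mt-Atp6 encodes the subunit that lines the proton path of the ATP synthase. Its levels were 6378, 7740, 6815, 5990 and 5296 CPM in the WT libraries 1 to 5, against 4192, 4794, 4080, 4905 and 4370 CPM in the TfamAKO libraries 1 to 5. No TfamAKO library reached the lowest WT library, and the mean went from 6444 ± 914 to 4468 ± 365 CPM (SD, n = 5 each), a log2 fold change of -0.53 ± 0.10 (edgeR adjusted p = 0.00139). mt-Atp8, a small subunit of the same membrane part, was at 594, 796, 679, 519 and 554 CPM in WT 1 to 5. In TfamAKO 1 to 5 it was at 413, 480, 419, 499 and 443 CPM. Its groups also did not overlap, though WT 4 was close to TfamAKO 4. The mean went from 629 ± 111 to 451 ± 37.7 CPM (SD, n = 5 each), a log2 fold change of -0.48 ± 0.11 (edgeR adjusted p = 0.00500).

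The same WT mice were high or low for most members, and among TfamAKO mice the extremes were spread over more libraries. WT 2 was the highest WT library for all 8 members, and WT 5 the lowest for 7, the exception being mt-Atp8. TfamAKO 3 was the lowest TfamAKO library for 5 members, while the highest was TfamAKO 4 for 4, TfamAKO 2 for 3 and TfamAKO 5 for mt-Rnr1. TfamAKO 5 was also the lowest for mt-Co3. The coefficient of variation over mice ran from 10.5% (mt-Rnr1) to 17.7% (mt-Atp8) in WT and from 7.71% (mt-Co1) to 10.6% (mt-Rnr1) in TfamAKO. Without WT 3, 4 and 5, 8 of 8 members were lower, at log2 fold changes from -0.45 (mt-Co1) to -1.05 (mt-Rnr1). In that fit 750 of 16723 tested genes were lower and 2002 higher. Without TfamAKO 4 and 5, 8 of 8 members were lower as well, from -0.39 (mt-Co1) to -0.98 (mt-Rnr1), where 2080 of 16327 tested genes were lower and 2851 higher.

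Per kilobase of transcript, the order of the levels was the same in each of the 10 libraries. mt-Co1 led, with a level of 11096 ± 1454 CPM per kb in WT and 8634 ± 666 in TfamAKO (SD, n = 5 each), followed by mt-Atp6 (9462 ± 1343 and 6561 ± 537). mt-Co2 (7758 ± 940 and 5650 ± 591), mt-Co3 (7011 ± 951 and 4778 ± 380) and mt-Cytb (5041 ± 623 and 3725 ± 306) came next. The lowest levels were those of mt-Atp8 (3081 ± 544 and 2209 ± 185), mt-Rnr2 (2668 ± 321 and 1615 ± 146) and mt-Rnr1 (2501 ± 263 and 1305 ± 138). Although the order held within libraries, the ranges over WT mice of neighbours overlapped, except between mt-Cytb and mt-Atp8. Over TfamAKO mice they overlapped for mt-Atp6 and mt-Co2, for mt-Co2 and mt-Co3 and for mt-Rnr2 and mt-Rnr1. The lengths are those of whole transcripts, not effective lengths, which matters most for mt-Atp8, the shortest at 204 bases.

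Since a ratio of 2 transcripts within a library does not depend on scaling, all 28 pairs of members were compared by their log2 ratio, with a two-sided exact permutation test over all assignments of the libraries and Benjamini-Hochberg adjustment over the 28 pairs. The smallest p this design allows is 0.00794, or 0.0159 with a library left out. With medians it is 0.0476, which passes the adjustment only where nearly all 28 pairs reach it. Of the 12 pairs of an mRNA and an rRNA, 11 differed, each with a higher mRNA to rRNA ratio in TfamAKO, by 0.20 (mt-Atp6 over mt-Rnr2) to 0.58 (mt-Co1 over mt-Rnr1) on the log2 scale. The remaining pair, mt-Co3 over mt-Rnr2, was higher by 0.17 ± 0.07 (SE) and did not pass (exact permutation adjusted p = 0.0741). With single libraries left out, 7 of the 12 pairs passed without WT 1, WT 2, WT 4, WT 5, TfamAKO 1, TfamAKO 3 or TfamAKO 4, and 0 passed with medians in place of means.

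The ratio of mt-Co1 to mt-Rnr1 counts was 6.93, 7.21, 8.24, 6.80 and 6.71 in WT 1 to 5 and 9.73, 11.4, 11.4, 12.1 and 9.28 in TfamAKO 1 to 5. The groups were well apart (difference of log2 ratios 0.58 ± 0.09 (SE), exact permutation adjusted p = 0.0247). For mt-Co1 over mt-Rnr2 the ratio went from 4.06 ± 0.248 in WT to 5.23 ± 0.204 in TfamAKO (SD, n = 5 each, exact permutation adjusted p = 0.0247). The rRNAs also fell unequally: mt-Rnr1 over mt-Rnr2 was 0.562, 0.556, 0.546, 0.589 and 0.581 in WT 1 to 5 and 0.531, 0.439, 0.466, 0.458 and 0.550 in TfamAKO 1 to 5. Only TfamAKO 5 reached the WT range there (difference of log2 ratios -0.22 ± 0.07 (SE), exact permutation adjusted p = 0.0296).

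**Figure D2:**
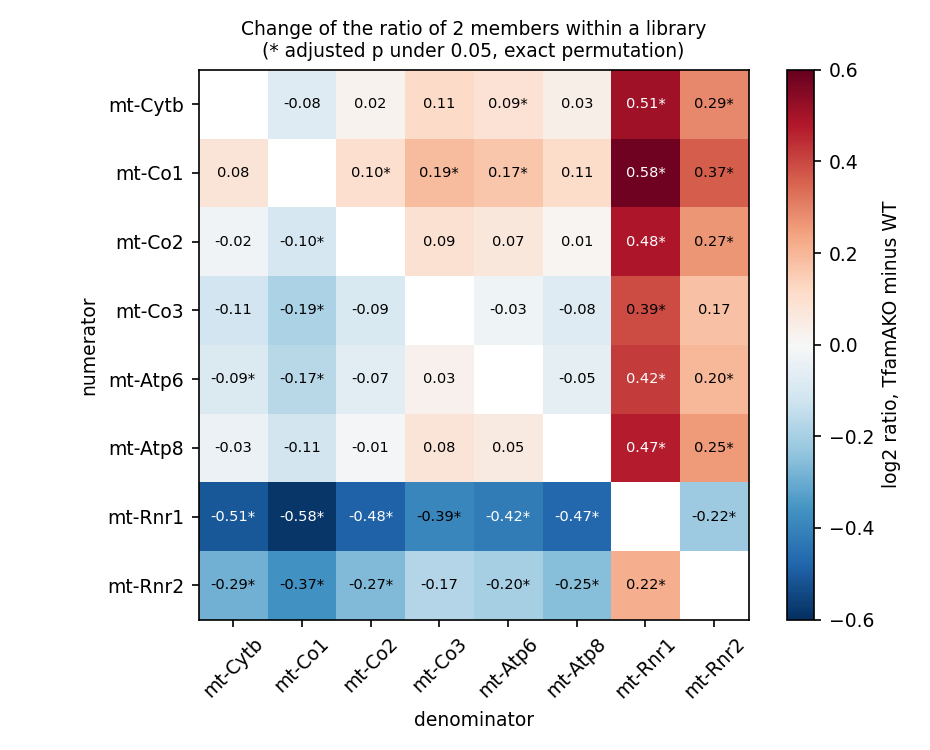
Difference of the log2 ratio of the row member to the column member, TfamAKO minus WT, with a star where the exact permutation adjusted p was under 0.05. The columns of mt-Rnr1 and mt-Rnr2 hold the largest values (up to 0.58), and the differences among the 6 mRNAs stay at or under 0.19.

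Among the mRNAs, 4 of 15 pairs differed, and 3 of these involve mt-Co1. Its ratio to mt-Co3 rose by 0.19 ± 0.04 (SE), to mt-Atp6 by 0.17 ± 0.02 and to mt-Co2 by 0.10 ± 0.04 on the log2 scale (exact permutation adjusted p = 0.0247, 0.0247 and 0.0296). The fourth was mt-Cytb over mt-Atp6 (0.09 ± 0.03, exact permutation adjusted p = 0.0417). mt-Co1 over mt-Atp6 was 2.69, 2.58, 2.71, 2.65 and 2.68 in WT 1 to 5 and 2.96, 3.04, 3.01, 2.89 and 3.03 in TfamAKO 1 to 5, so the groups were apart with little spread within either. mt-Atp6 over mt-Atp8, from a shared mRNA, went from 10.3 ± 0.811 to 9.92 ± 0.161 (SD, n = 5 each) and did not pass (exact permutation adjusted p = 0.444). The number of the 28 pairs that passed was 16. It was 9 without WT 1, WT 4 or WT 5 and 10 without WT 2, TfamAKO 1, TfamAKO 3 or TfamAKO 4. It was 0 with medians in place of means, where a pair could hardly pass. In each of these settings all 16 kept their sign.

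Along the heavy strand, in the gene order of GENCODE M21, the rRNAs come first and mt-Cytb last. The log2 fold change was -0.94 for mt-Rnr1 in place 1, -0.72 for mt-Rnr2 in place 2 and between -0.36 and -0.55 for mt-Co1, mt-Co2, mt-Atp8, mt-Atp6 and mt-Co3 in places 5 to 9. For these 5 neighbours the fall was larger at each following place, though among adjacent pairs only mt-Co1 and mt-Co2 passed the ratio test. mt-Cytb, in place 14, was at -0.44. The 7 mtDNA-encoded mRNAs of complex I ran from -0.23 (mt-Nd5) to -0.78 (mt-Nd2), and 5 of them were lower, all but mt-Nd5 (edgeR adjusted p = 0.120) and mt-Nd6 (0.0766). The fall of mt-Nd2 was thus larger than that of mt-Rnr2, a difference that was not tested. No trend along the strand was tested.

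**Figure D3:**
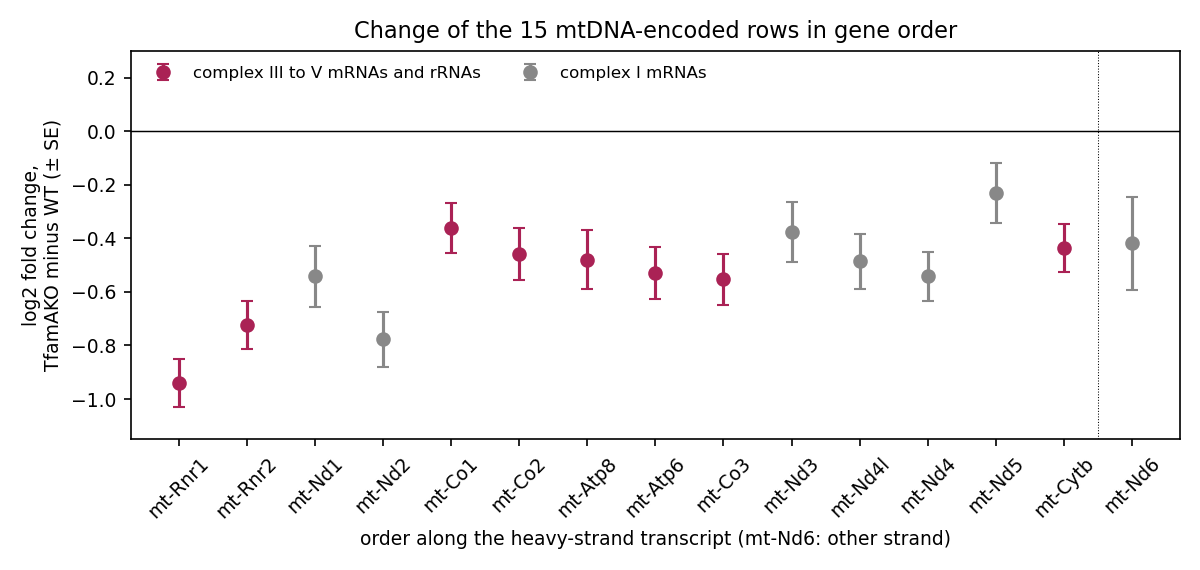
Log2 fold change (TfamAKO minus WT, bars ± SE) of the 15 mtDNA-encoded rows in their order on the heavy strand, with mt-Nd6 of the other strand at the right. The rRNAs, in places 1 and 2, lie at -0.94 and -0.72, and mt-Nd2 in place 4 at -0.78, below the complex III to V mRNAs.

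Nuclear genes for subunits of the same complexes had median changes closer to 0. In complex III, 3 of 9 tested subunit genes were lower and 0 higher, with a median log2 fold change of -0.07. Those lower were Uqcrh (-0.33 ± 0.06), Uqcr11 (-0.27 ± 0.07) and the iron-sulfur protein gene Uqcrfs1 (-0.20 ± 0.05). In complex IV, 7 of 16 were lower and 2 higher, with a median of -0.13. Cox6c went from 154 ± 8.45 to 122 ± 4.16 CPM (log2 fold change -0.33 ± 0.05, edgeR adjusted p = 0.000613) and Cox7b fell by 0.36 ± 0.07 on the log2 scale. The 2 that rose, both at low levels, were Cox6b2 (2.08 ± 0.742 to 6.61 ± 2.64 CPM, log2 fold change 1.66 ± 0.33), known from testis, and Cox6a2 (1.99 ± 0.872 to 4.76 ± 1.16 CPM, edgeR adjusted p = 0.00521), known from muscle, the latter named after its values were seen. In complex V, 10 of 17 were lower and 0 higher, with a median of -0.17. Atp5k (-0.43 ± 0.07), Atp5mpl (-0.32 ± 0.06) and Atp5g3 (-0.25 ± 0.05), which encode parts of the membrane domain, fell on the log2 scale. Over all tested genes, the median was -0.02, and 16.6% were lower and 20.8% higher.

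To compare the mtDNA-encoded and nuclear parts of a complex directly, each member mRNA was divided by the summed counts of the tested nuclear subunits of its complex in the same library, a comparison added with the data in view. Such a sum follows its most abundant genes. In complex V these were Atp5b (1086 CPM in WT, log2 fold change 0.02) and Atp5a1 (822 CPM in WT, 0.13). Neither was called, while 10 of the 17 complex V genes were lower. The ratio was lower in TfamAKO for all 6 mRNAs, each in 5 of 5 libraries against the WT mean. mt-Cytb per complex III subunits fell by 0.40 ± 0.10 (SE) on the log2 scale, mt-Co3 per complex IV by 0.40 ± 0.09, mt-Atp6 per complex V by 0.49 ± 0.11 and mt-Atp8 by 0.43 ± 0.13 (exact permutation p = 0.00794 and adjusted p over the 6 = 0.0119 for each). mt-Co2 (-0.31 ± 0.09, exact permutation adjusted p = 0.0286) and mt-Co1 (-0.21 ± 0.09, exact permutation adjusted p = 0.0476) passed with an overlap of 1 WT library. Both lost their call without WT 1, WT 2, WT 3, WT 4, TfamAKO 1 or TfamAKO 3, when 4 of 6 passed. mt-Co1 also lost it without TfamAKO 4 and in the deposited normalized values, when 5 of 6 passed. With medians 0 passed and all 6 stayed lower, but a pass there needs all 6 at the smallest p possible, 0.0476.

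**Figure D4:**
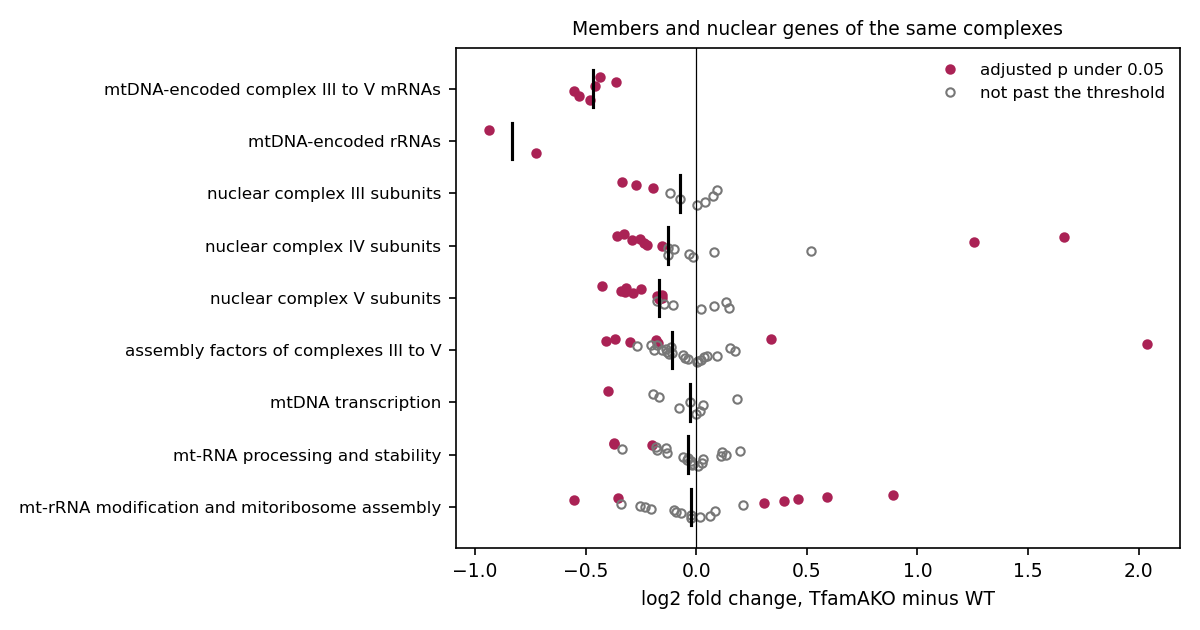
Log2 fold change (TfamAKO minus WT) of the members and of nuclear gene lists, 1 point per gene, filled where the edgeR adjusted p was under 0.05, with a black bar at the list median. The 8 members lie between -0.36 and -0.94, and the medians of the nuclear lists between -0.02 and -0.17.

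Among genes that build the complexes or make and mature these RNAs, the shares called were below the 37.4% of all tested genes, of which 16.6% were lower and 20.8% higher. Of assembly factors of complexes III to V, 5 of 28 were lower and 2 higher (25% called), with Coa3 (-0.37 ± 0.07), a factor that acts on newly made Co1 protein, lower and Surf1 (0.34 ± 0.07), an oxidase assembly factor, higher. The other gene that rose, Pet117, named after its values were seen, was at low levels (0.267 ± 0.370 CPM in WT and 1.20 ± 0.392 CPM in TfamAKO). In the list of mtDNA transcription and replication 1 of 9 was lower, Tfam, and 0 higher (11.1% called). The mitochondrial RNA polymerase gene Polrmt (37.8 ± 2.89 and 33.7 ± 4.84 CPM) did not pass (log2 fold change -0.17 ± 0.10, edgeR adjusted p = 0.195), and neither did the initiation factor gene Tfb2m (-0.20, adjusted p = 0.116). For processing and stability of mitochondrial RNA 3 of 21 were lower and 0 higher (14.3% called): Fastkd2 (-0.37 ± 0.10), Fastkd3 (-0.37 ± 0.11) and Ptcd2 (-0.20 ± 0.07).

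Among genes for modification of the mitochondrial rRNAs and assembly of their ribosome, 2 of 20 were lower and 5 higher, with a median of -0.02. These 35% called are close to the 37.4% of all tested genes. Mettl15, which methylates the small rRNA, went from 3.91 ± 0.460 to 7.28 ± 1.10 CPM (SD, n = 5 each, log2 fold change 0.89 ± 0.15, edgeR adjusted p = 0.000648). Rcc1l (0.59 ± 0.10), a factor of ribosome assembly, also rose, and Mrm3 (-0.36 ± 0.10), which methylates the large rRNA, fell. The other gene that fell was Trmt61b (-0.55 ± 0.16), another rRNA methyltransferase gene, named after its values were seen.

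Marker lists of cell types differed in how many genes were called, against 16.6% lower and 20.8% higher over all tested genes. Of 8 neuronal markers 4 were lower and 0 higher, and their summed level ran from 9679 to 10593 CPM in WT and from 7600 to 8905 CPM in TfamAKO. The 10 markers of hippocampal principal neurons had 2 lower and 0 higher (20% called, against 37.4% of all tested genes). Their sums overlapped, at 1709 to 1929 CPM in WT and 1174 to 1824 CPM in TfamAKO. Of 6 microglial markers 5 were higher and 0 lower (268.6 to 321 CPM and 457 to 538 CPM), and of 6 endothelial markers 4 were higher and 0 lower (178 to 239 CPM and 257 to 400 CPM). Of 8 astrocyte markers 4 were higher and 3 lower (3247 to 3992 CPM and 3875 to 6206 CPM). Mean Gfap rose from 447 to 2093 CPM, more than the astrocyte sum did, and mean Slc1a2 fell from 2122 to 1340 CPM. Of 6 oligodendrocyte markers 1 was higher and 0 lower (4979 to 8669 CPM and 5385 to 7385 CPM), a share below that of all genes. Of 8 markers of choroid plexus and ependyma 7 were lower and 1 higher, summed to 52.9 to 5646 CPM in WT and 62.5 to 154 CPM in TfamAKO. The part of these cell types in the fall of the mtDNA-encoded transcripts was not tested. RNAs without a poly(A) tail could not serve as a check of selection, since only Rn7sk of the 10 listed was tested (1.49 ± 0.382 and 1.14 ± 0.443 CPM, edgeR adjusted p = 0.323).

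The genes whose levels followed the members most closely within genotypes were sought by Pearson's r of log2 CPM over the 10 libraries, after the genotype mean was taken off, among 14775 nuclear genes of at least 1 CPM. The mean of the 6 mRNAs was followed by Egf (r = 0.94), by a row with only an Ensembl ID (ENSMUSG00000067038, r = 0.92), and by Fndc4 (0.92), Ptpmt1 (0.91) and Tpt1 (0.91). The mean of the rRNAs was followed by Fgd2 (r = 0.94), Stx4a (0.94), Kif13b (0.93), ENSMUSG00000067870 (0.93) and Vrk2 (0.91). These are the highest of many values over few libraries that share depth and composition, and no gene was on both lists. Of these 10 genes, 4 passed the edgeR test between the genotypes, a share close to the 37.4% of all tested genes. Fndc4 was lower (log2 fold change -0.31 ± 0.05), and Tpt1 (0.41 ± 0.06), Fgd2 (0.72 ± 0.14) and ENSMUSG00000067038 (0.29 ± 0.07) were higher.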

How the data were processed

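The authors deposited a table of unnormalized estimated counts and a table of normalized signal values over the same rows, per the file headers. The submitters' processing notes name Salmon and DESeq2 1.26.0. No source used here names the build or annotation behind the table. Positions are therefore left out, and transcripts were taken by name from GENCODE M21. The deposited counts were whole numbers. The members and gene lists were chosen with earlier results of these data known.

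Counts were tested with edgeR 4.0.16 in R 4.3.3: filterByExpr (minimum count 10, 16180 of 20156 rows kept), TMM scaling, and the quasi-likelihood test of genotype, with no covariate and with Benjamini-Hochberg adjustment over all tested genes (threshold 0.05). Standard errors are the absolute log2 fold change over the square root of F. Ratios of members used counts plus 0.5. Alternatives were other scalings and filters, DESeq2 1.42.0, limma 3.58.1 on voom weights or on the deposited normalized signal (pseudocounts 0.5, 1 and 5), a replicate block and leaving out libraries.

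The rule for named genes took all members, Tfam, up to 3 genes of smallest p per list, and the 5 genes most alike within genotypes. The nuclear copies were picked by hand, after the data were seen, as the annotated pseudogenes that share the most 31-base words with a member and are rows of the table. The test across genes and the pair test were first checked on simulated data with known changes. Of 50 changed genes per fold, the test across genes recovered 14% at 1.25-fold, 62% at 1.5-fold, 86% at 2-fold and 100% at 4-fold. Its 142 calls held 11 false ones. The pair test recovered 12 of 12 pairs changed 1.5-fold, with 0 false among 16. That change was as large as the largest difference seen between 2 members (0.58 on the log2 scale). Noise was simulated as equal and independent for each member, which need not hold here. Recovery of smaller differences between members was not simulated. A gene that did not pass can thus have changed by a small amount.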

Additional observations from a re-analysis of the deposited data

Results flagged for a closer look

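In a scan of 80 sets of 5 libraries (levels, shares and ratios of the members, and Tfam), 4 held a library whose gap to its nearest neighbour exceeded Dixon's critical share of the range. Chance flags about 1 in 20 independent sets, which is as many as were found. Most of these sets share members and libraries, so that rate is only a rough guide here. WT 3 stood above the other WT libraries in the ratio of mt-Cytb to mt-Rnr2 (1.45) and of mt-Co1 to mt-Rnr2 (4.50), in the direction of the TfamAKO libraries but below all of them. WT 3 was also low in Tfam (20.6 CPM, the other WT libraries at 30.4 to 33.0 CPM), and TfamAKO 3 was low in Tfam (19.6 CPM, the other TfamAKO libraries at 22.7 to 23.6 CPM).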

How the results depend on the processing

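In 25 alternatives per member, all 8 members stayed lower in TfamAKO and past the threshold, with the highest adjusted p between 0.00114 (mt-Rnr1) and 0.0289 (mt-Co1). The log2 fold change ran from -1.05 to -0.86 for mt-Rnr1 and from -0.45 to -0.29 for mt-Co1. The number of genes differing between TfamAKO and WT, 6048, was 2752 without WT 3, 4 and 5. With medians the pair test allows no p under 0.0476, and nearly all pairs must reach it for any to pass. With a library left out it allows none under 0.0159. The pairs of members whose ratio differs, 16, came to 0 with medians and to 9 to 15 when each library was left out. They came to 0 without WT 3, 4 and 5 or without TfamAKO 4 and 5, where the smallest p is 0.0952 and 0.0357 and the smallest adjusted p was 0.167 and 0.0769. The first of these tests could not pass the threshold in any case. The mRNA members whose ratio to nuclear subunits differs, 6, came to 4 to 6 when each library was left out, and to 0 with medians and without either of those sets of libraries. Here too the test without WT 3, 4 and 5 could not pass. With medians all 6, and without TfamAKO 4 and 5 nearly all, had to reach the smallest p possible. In each of these settings all 6 stayed lower. Of 1500 values for 60 other named genes, 1414 kept their call, 56 lost it, 25 gained it and 5 changed sign: Ptpmt1 on deposited normalized values (-0.13 at pseudocounts 0.5, 1 and 5, limma adjusted p = 0.412 to 0.416), and Stx4a (-0.0077) and ENSMUSG00000067870 (-0.045) without WT 3, 4 and 5. The cause was not tested. The replicate block gave 5679 genes and 8 lower members. The numbers did not pair the samples, with correlations of deviations from -0.146 to 0.0920 between libraries of the same number. Without 3 WT libraries, the spread of WT rests on 2.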

Other observations

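The estimated counts of the annotated nuclear copies varied far more between libraries than those of the members they resemble. Gm10925 shares 99.5% of the 31-base words of mt-Atp6, and Gm28661 99.5% of those of mt-Co2. The split of such reads between copy and member is an estimate, so these counts need not be levels per mouse. Gm10925, the copy of mt-Atp6, had 303, 2702, 377, 1217 and 2159 counts in WT 1 to 5 and 0, 926, 489, 1512 and 2276 in TfamAKO 1 to 5. Gm28661, the copy of mt-Co2, had 879, 295, 794, 331 and 451 counts in WT 1 to 5 and 112, 0, 891, 268 and 0 in TfamAKO 1 to 5. Gm29216, a copy of part of mt-Co1, ranged from 177 to 5706 counts. None of these 3 passed the test between genotypes (edgeR adjusted p = 0.655, 0.365 and 0.891).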
